A study of Homo sapiens with 6 samples.

Results

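Ribosomal protein genes were followed in H441 cells, an established human lung adenocarcinoma line, after siRNA against the transcription factor ETS2. Genes were taken by symbol: RPL, RPS, MRPL or MRPS followed directly by a digit. The 10 RPS6K kinase genes and 21 symbols of pseudogenes were left out. Of 18417 genes measured by a probe with a single symbol, 139 matched. They were 65 genes of the cytosolic ribosome (41 of the large and 24 of the small subunit by symbol), 73 of the mitochondrial ribosome (48 and 25) and the divergent transcript RPL34-DT, which is kept apart. RefSeq lists 160 protein-coding symbols of this form, and 22 of them, such as RPL39, RPL36A and RPS10, had no single-symbol probe and are not analysed here as members.

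Control cells received a scrambled siRNA. The other cells received a SMARTpool, a commercial mixture of several siRNAs, directed at ETS2. Lipofectamine RNAiMAX carried both into the cells, whose RNA was profiled at 48 h on an Affymetrix human gene array. There are 3 independent transfections per group, all of the same line and with 1 array apiece, so p-values measure the spread between transfections. A single pool of siRNAs was used, and no second pool or rescue is among these samples.

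The cytosolic ribosome translates messages of nuclear genes and consists of a large and a small subunit, each built of ribosomal RNA and many proteins. Mitochondria have their own ribosome, which makes a few membrane proteins of the respiratory chain; its RNA comes from the mitochondrial genome and all of its proteins from nuclear genes. Most messages of cytosolic ribosomal proteins begin with a run of pyrimidines, the terminal oligopyrimidine (TOP) motif, through which mTOR signalling controls their translation, whereas promoters of mitochondrial ribosomal protein genes often carry sites for ETS-family factors such as GABP.

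Levels are log2 values of the deposited table, and a positive difference means a higher level after ETS2 siRNA. A gene is said to have risen or fallen at an adjusted p under 0.05 in limma with Benjamini-Hochberg adjustment over all 18417 genes. ETS2 itself read 9.79, 9.91 and 9.79 in control cells and 8.87, 8.70 and 8.78 after its siRNA, a fall of 1.05 that left 48.4% of the control level (SE 0.0565, limma adjusted p = 0.000254). Array medians lay between 7.32 and 7.36. Of the markers of lung epithelium, 8 were measured, with mean levels from 9.53 to 13.38. SFTPB, a surfactant protein, fell by 0.36 (limma adjusted p = 0.00770). The other 7 did not pass and ranged from -0.13 for NAPSA and -0.11 for NKX2-1 to 0.06 for CDH1. Of the 8, 3 had an unadjusted p under 0.05 in limma (37.5%, against 18.5% of all genes), all lower. The groups did not overlap in 5 of the 8 (62.5%, against 23.1% of all genes), 2 higher and 3 lower. Leukocyte, fibroblast and endothelial markers gave 0 calls among 13 genes in limma (1 at an unadjusted p under 0.05); their mean levels ran from 4.73 to 6.89, from 4.35 to 9.00 and from 5.76 to 9.71. A floor for unexpressed genes was set at 6.67, the 95th percentile of 341 olfactory receptor genes. Above it lay 61 of 65 cytosolic and 72 of 73 mitochondrial members. PTPRC, which defines leukocytes, lay below it at 4.73, as did PECAM1, CDH5 and VWF of endothelium, whereas CD14, COL1A1, COL1A2, COL3A1, LUM and KDR lay above it.

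Cytosolic ribosomal protein genes stood nearly still after ETS2 siRNA. The share of mitochondrial ribosomal protein genes that passed the adjusted threshold was near that of all genes. The 4 that passed belong to the large subunit by symbol, and they fell. Over all genes, 904 (4.91%) passed the adjusted threshold, 420 higher (2.28%) and 484 lower (2.63%). Among cytosolic members 0 of 65 passed, and 3 had an unadjusted p under 0.05 in limma (4.62%, against 18.5% of all genes). Among mitochondrial members 4 of 73 passed (5.48%), a share near that of all genes. MRPL35, MRPL40, MRPL10 and MRPL48 all fell, none rose, and 16 members (21.9%) had an unadjusted p under 0.05. The 4 genes are 4 of 48 large-subunit symbols (8.33%), and 0 of 25 small-subunit symbols passed. Whether the subunits differ was not tested, and members of a class are not replicates, so the classes are set side by side without a p.

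The differences themselves were narrower in the cytosolic class. Cytosolic members ranged from -0.10 to 0.21 with an SD of 0.0555 between genes, mitochondrial members from -0.34 to 0.17 with an SD of 0.0938, and all genes had an SD of 0.107. A difference smaller than 0.1 in size was found for 59 of 65 cytosolic members (90.8%), 55 of 73 mitochondrial members (75.3%) and 74.8% of all genes. The median difference was -0.0033 in cytosolic and 0.0133 in mitochondrial members, against 0.0033 for all genes. The sign of the cytosolic median is not fixed: it became 0.0100 when each array was centred on its median and 0.0092 after a second quantile normalisation. Positive differences were seen for 31 cytosolic (47.7%) and 48 mitochondrial members (65.8%), against 50.8% of all genes. Members share the same arrays, so their signs are not independent, and these shares were not tested. Mitochondrial members deviated from their own means by a median of -0.013, 0.007 and -0.02 on the control arrays. On the ETS2 siRNA arrays it was -0.012, 0.015 and 0.023, so the groups overlapped. Single genes could be placed to within a narrow margin: the median half-width of the 95% interval was 0.0953 in cytosolic and 0.0982 in mitochondrial members. For all genes it was 0.115. The interval lay inside a 1.25-fold change either way for 63 of 65 (96.9%) and 70 of 73 members (95.9%), against 91.8% of all genes.

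**Figure D1:**
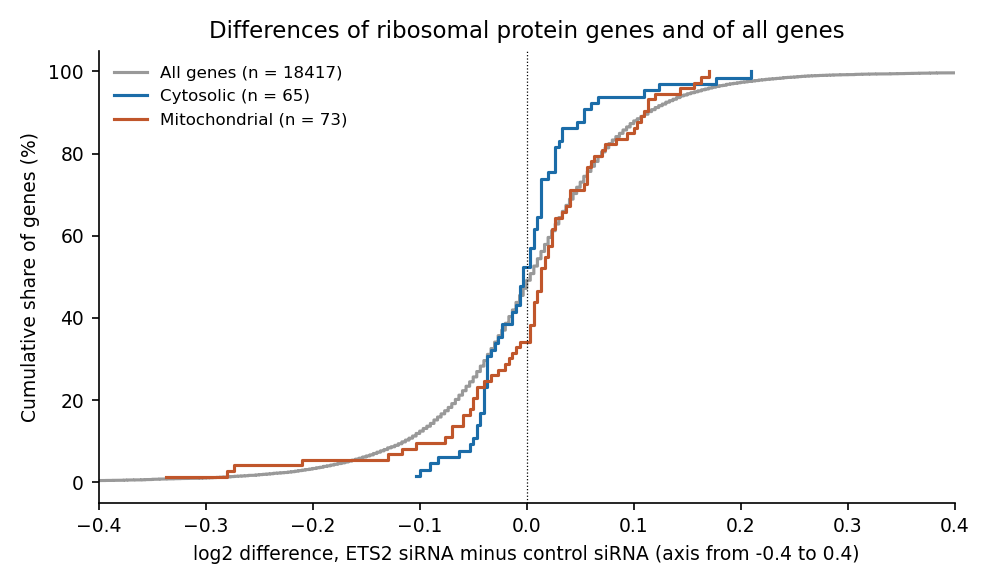
Cumulative share of genes (%) against the log2 difference, ETS2 siRNA minus control siRNA, for the 65 cytosolic and 73 mitochondrial ribosomal protein genes and all 18417 genes; the axis is limited to -0.4 to 0.4. The cytosolic line is the steepest, with differences from -0.10 to 0.21, and the mitochondrial line has a lower tail to -0.34.

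MRPL35, a large-subunit protein with a bacterial counterpart, had the largest difference of any member. It read 10.22, 10.43 and 10.32 in control cells and 10.00, 9.94 and 10.02 after ETS2 siRNA. All ETS2 siRNA arrays lay below all control arrays. The means were 10.32 ± 0.11 and 9.99 ± 0.04 (SD, n = 3 arrays each), a fall of 0.34 to 79.2% of control (SE 0.0576, 95% interval -0.47 to -0.20, limma adjusted p = 0.0169).

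MRPL40 and MRPL48 sit with other mitochondria-specific proteins in the central protuberance, the crown of the large subunit. MRPL40 read 9.99, 10.07 and 9.96 in control cells and 9.79, 9.67 and 9.74 after ETS2 siRNA, falling by 0.27 to 82.7% of control (SE 0.0484, limma adjusted p = 0.0191). MRPL48 read 9.50, 9.54 and 9.44 and then 9.24, 9.28 and 9.33, falling by 0.21 to 86.5% (SE 0.0444, limma adjusted p = 0.0363). In both genes the groups did not overlap. Their neighbours in the same structure did not all read lower. MRPL46 gave 10.55, 10.68 and 10.65 and then 10.77, 10.84 and 10.74, a difference of 0.16 that did not pass (limma adjusted p = 0.126). MRPL38 differed by 0.00 (limma adjusted p = 0.982).

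MRPL10 belongs to the base of the stalk, the flexible arm that recruits translation factors. It read 8.62, 8.72 and 8.74 in control cells and 8.34, 8.48 and 8.42 after ETS2 siRNA, a fall of 0.28 to 82.4% of control (SE 0.0520, limma adjusted p = 0.0224). The groups again did not overlap. MRPL12, which forms the stalk itself, differed by 0.01 (limma adjusted p = 0.930), and MRPL11, its neighbour at the factor-binding site, by -0.03 (limma adjusted p = 0.798). These structural groups were chosen after the values were seen.

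The 4 calls rest on all 6 arrays. MRPL48 missed the threshold without any 1 array. MRPL10 kept its call only without control array 1, MRPL35 only without control array 1 or 2, and MRPL40 without control array 2 or 3 or ETS2 siRNA array 1. Adjusted p-values of the limma fits with 1 array left out reached 0.0759 for MRPL35, 0.0832 for MRPL40, 0.0937 for MRPL10 and 0.128 for MRPL48, while the differences stayed between -0.39 and -0.19. Each gene was read by 1 probe. Fewer messages per cell and fewer cells of a kind cannot be told apart in such RNA.

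**Figure D2:**
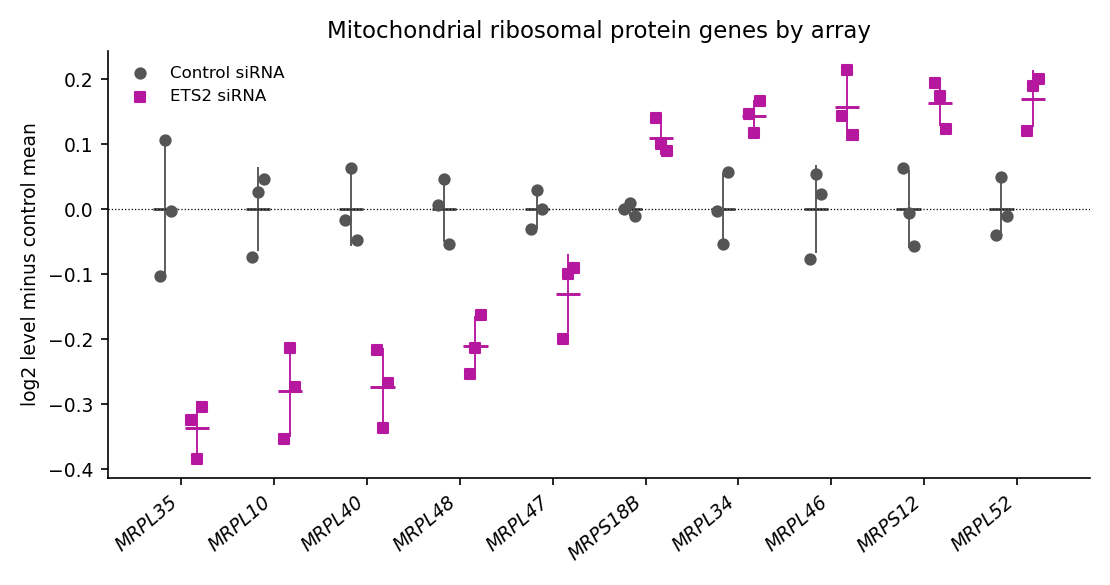
Log2 level on each array minus the mean of the 3 control arrays for 10 mitochondrial ribosomal protein genes (5 with the smallest p in each direction); horizontal bars are group means and vertical lines the SD. The 4 genes on the left passed the adjusted threshold, and MRPL47 and the 5 genes on the right did not, although in all 10 the groups do not overlap.

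Groups of arrays did not overlap for 21 mitochondrial members (28.8%), 13 higher and 8 lower, and for 6 cytosolic members (9.23%), 3 each way. For all genes the share was 23.1%, 11.6% higher and 11.5% lower. The mitochondrial share lay somewhat above that of all genes and the cytosolic share below it, and neither difference was tested. Apart from the 4 falls, the lower mitochondrial side held MRPL47, with 10.33, 10.39 and 10.36 and then 10.16, 10.26 and 10.27 (difference -0.13, limma adjusted p = 0.156), and the small-subunit genes MRPS25, MRPS16 and MRPS31 at -0.10, -0.06 and -0.05.

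On the higher side, MRPL52 had the smallest p. It read 9.07, 9.16 and 9.10 in control cells and 9.23, 9.30 and 9.31 after ETS2 siRNA, a difference of 0.17 (SE 0.0433, limma adjusted p = 0.0694). MRPS12, the protein of the decoding centre, read 8.61, 8.54 and 8.49 and then 8.74, 8.72 and 8.67, a difference of 0.16 (SE 0.0451, limma adjusted p = 0.0882). Neither passed here, and each passed under some other settings: MRPL52 in 4 of 14 and MRPS12 in 2 of 14. MRPL34 differed by 0.14 (limma adjusted p = 0.109) and MRPS18B by 0.11 (limma adjusted p = 0.148), with control arrays of MRPS18B at 10.78, 10.79 and 10.77 and ETS2 siRNA arrays at 10.92, 10.88 and 10.87. MRPL58, which descends from a release factor and frees stalled chains, differed by 0.11 (limma adjusted p = 0.158).

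Other mitochondrial members with well-known roles gave small differences. MRPL45, which holds the ribosome at the inner membrane, read 12.35, 12.44 and 12.39 in control cells and 12.37, 12.44 and 12.39 after ETS2 siRNA. Its difference was 0.01 (limma adjusted p = 0.962). Mutations of MRPS16, MRPS22, MRPS34, MRPL3 and MRPL44 cause inherited respiratory chain deficiency. Their differences were -0.06, 0.01, 0.09, 0.01 and 0.02, and 0 of these 5 genes passed in limma, MRPS34 having an unadjusted p of 0.0452. MRPS18A and MRPS30, which lie in the large subunit despite their symbols, differed by 0.00 and 0.02.

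Most cytosolic members were read at high levels, and there the arrays agreed closely. The 4 highest, RPS28, RPL8, RPL5 and RPL18, averaged 13.88, 13.86, 13.76 and 13.69, below the table's highest value of 14.51. Levels are those of the brightest probe, and other probes of a gene can read much lower. Whether the brightest probe reads the named gene alone was not tested. For RPL12 the brightest probe averaged 13.13 and another 9.01. Another probe of RPL5 averaged 10.35, with a difference of -0.07. RPS28, a small-subunit protein, read 13.87, 13.91 and 13.88 in control cells and 13.87, 13.88 and 13.89 after ETS2 siRNA. RPL5 and RPL11, which carry the small ribosomal RNA of the large subunit and can bind MDM2 when free, differed by -0.01 and -0.02. RPS6, the target of the S6 kinases, differed by 0.01. RPS19, mutated in Diamond-Blackfan anaemia, differed by -0.01, and RPS14, lost in the 5q- syndrome, by 0.03. RPL3, at the peptidyl transferase centre, and RPL10, needed for subunits to join, differed by -0.05 and -0.04. The 95% interval of each of these differences included 0.

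The classes were also read at high levels alone, with a level of 11 chosen after the values were seen. Of 45 cytosolic members at or above 11, 0 had an unadjusted p under 0.05 in limma and 0 an adjusted one, and groups did not overlap in 3 (6.67%). Among all 1862 genes at or above 11, 25% had an unadjusted p under 0.05, 7.2% passed the adjusted threshold and 42.3% had groups that did not overlap. The sets are not matched in level: the median level was 12.74 in these cytosolic members and 11.62 in all genes at or above 11. The spread within groups was alike, with a median SD of 0.0334 in these cytosolic members and 0.0329 in those genes. The SD of the differences was 0.0360 against 0.103. Of the 21 mitochondrial members at or above 11, groups did not overlap in 4 (19.0%) and 18 had a positive difference (85.7%), with a median of 0.0400 and 0 calls in limma (1 at an unadjusted p under 0.05). Among all genes of that level 52.5% had a positive difference, with a median of 0.0067. The signs of members are not independent, as they share the arrays, and the shares were not tested. The 4 falls all lay among the 52 mitochondrial members below 11. Levels differ between the classes, and their part in the contrast beyond this split was not tested.

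**Figure D3:**
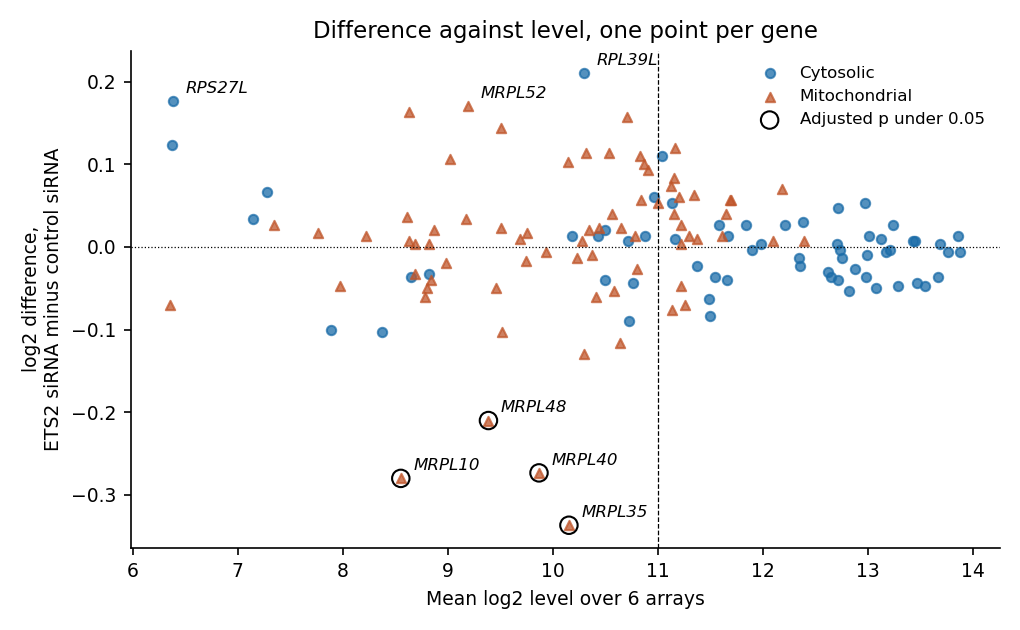
Log2 difference (ETS2 siRNA minus control siRNA) against the mean log2 level over 6 arrays, 1 point per ribosomal protein gene; rings mark an adjusted p under 0.05 and the dashed line a level of 11. Cytosolic genes at or above 11 stay between -0.08 and 0.11, and the 4 ringed mitochondrial genes lie below that level.

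The cytosolic gene with the smallest p was RPL39L, the testis-enriched paralogue of the exit-tunnel protein RPL39. It read 10.10, 10.26 and 10.22 in control cells and 10.33, 10.44 and 10.44 after ETS2 siRNA. The groups did not overlap. The means were 10.19 ± 0.08 and 10.40 ± 0.06 (SD, n = 3 arrays each), a difference of 0.21 (SE 0.0550, 95% interval 0.08 to 0.34) that missed the threshold (limma adjusted p = 0.0758). It passed in 5 of 14 other settings, with an adjusted p from limma of 0.0487 when the replicate number was a block.

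The other cytosolic members with the smallest p-values gave smaller or dimmer readings. RPS27L, a p53 target, read 6.30, 6.40 and 6.18 and then 6.43, 6.41 and 6.57, a difference of 0.18 (limma adjusted p = 0.199); its mean of 6.38 lies under the floor. RPS7 read 10.96, 11.01 and 10.98 and then 10.97, 11.14 and 11.17 (difference 0.11, limma adjusted p = 0.367). RPS25, used by some viral and cellular internal entry sites, differed by 0.05 without overlap (12.96, 12.93 and 12.96, then 12.99, 13.01 and 13.01). On the lower side stood RPS29, at 8.36, 8.47 and 8.44 and then 8.30, 8.35 and 8.31 (difference -0.10, limma adjusted p = 0.248). RPL36 read 11.50, 11.57 and 11.55 and then 11.47, 11.43 and 11.47 (difference -0.08, limma adjusted p = 0.310).

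Several cytosolic proteins have a paralogue that can take their place in the ribosome. RPL22 read 7.90, 7.98 and 7.94 in control cells and 7.91, 7.85 and 7.76 after ETS2 siRNA, a difference of -0.10 (limma adjusted p = 0.337). Its paralogue RPL22L1 read 6.42, 6.17 and 6.35 and then 6.38, 6.50 and 6.43, a difference of 0.12 (limma adjusted p = 0.398) at a level under the floor. RPS27 differed by -0.00 (limma adjusted p = 0.982), and its sign turned with the scaling, to 0.01 after centring each array. RPL26 read 10.79, 10.77 and 10.76 and then 10.54, 10.70 and 10.81, so its difference of -0.09 (limma adjusted p = 0.550) rests on the first ETS2 siRNA array. RPL7 read 12.90, 12.83 and 12.83 and then 12.75, 12.82 and 12.83, a difference of -0.05 (limma adjusted p = 0.590). RPL3L, RPL7L1, RPL10L, RPL26L1 and RPL36AL differed by 0.07, -0.04, 0.03, -0.04 and 0.01. A dimmer probe of RPL26L1, with a mean of 7.01, had the opposite sign at 0.01. In the mitochondrial trio MRPS18A, MRPS18B and MRPS18C the differences were 0.00, 0.11 and -0.07, with MRPS18C averaging 6.36, under the floor.

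**Figure D4:**
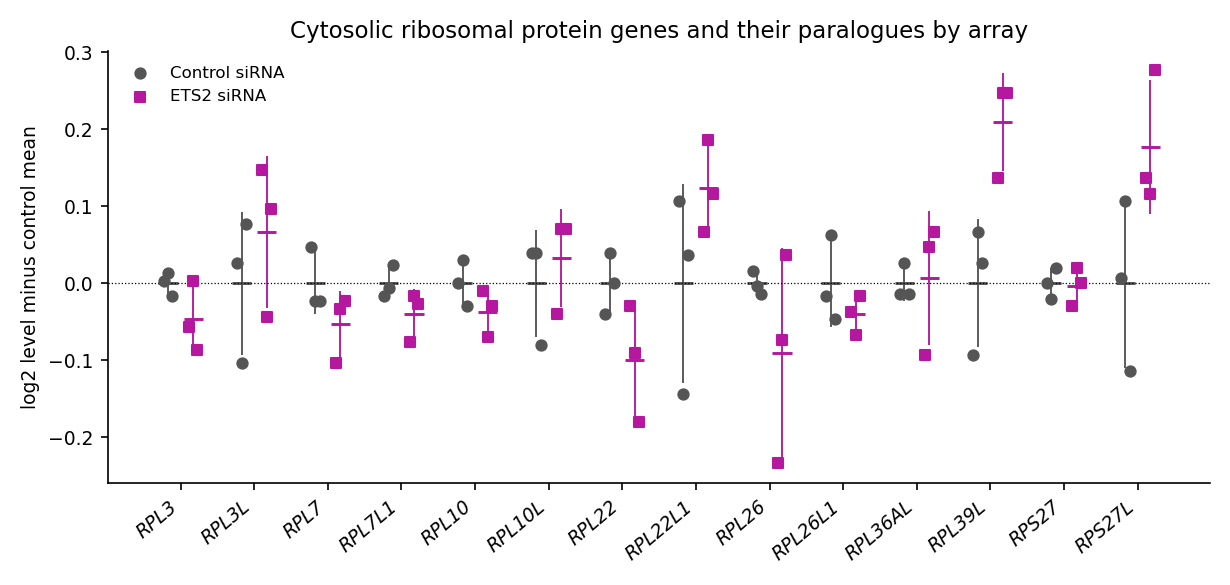
Log2 level on each array minus the mean of the 3 control arrays for cytosolic ribosomal protein genes and their paralogues; horizontal bars are group means and vertical lines the SD. RPL39L and RPS27L are the genes whose groups do not overlap, and none of the 14 passed the adjusted threshold.

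Array by array, the median level of the cytosolic members was 11.98, 11.97 and 12.00 in control cells and 11.93, 12.04 and 11.99 after ETS2 siRNA. For the mitochondrial members it was 10.33, 10.39 and 10.36, then 10.35, 10.39 and 10.36. The cytosolic minus mitochondrial median was 1.65, 1.58 and 1.64 in control cells and 1.58, 1.65 and 1.63 after ETS2 siRNA, so the groups overlapped. One array stood slightly apart for the cytosolic genes. On the first ETS2 siRNA array, 26 of 65 cytosolic members had their lowest value, and 16 lay above their own mean over all arrays. On the third ETS2 siRNA array 48 of 65 did. Without the first ETS2 siRNA array the cytosolic median difference was 0.0133.

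The promoters of the members were read from RefSeq (GRCh38.p14), as windows from 250 bases before to 50 after the annotated start; the starts used in H441 cells were not measured. A window was listed for 54 cytosolic and 66 mitochondrial members, and where a gene had several starts any of them counted. A C at the start followed by at least 4 pyrimidines, the form of a TOP message, was found in 36 cytosolic (66.7%) and 6 mitochondrial members (9.09%), against 6.26% of the 14239 genes of the table with a window and 4.07% of all 35116 windows. The motif CCGGAAG, the core bound by many ETS factors, was searched on both strands. It lay in the windows of 19 cytosolic (35.2%) and 29 mitochondrial members (43.9%), against 16.8% of the genes of the table and 10.3% of all windows. The longer CCGGAAGTG, which contains it, was found in 5.56%, 7.58%, 4.13% and 2.36% in the same order. TATAAA was found in 11.1% of cytosolic and 4.55% of mitochondrial members and in 11.5% of all windows.

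**Figure D5:**
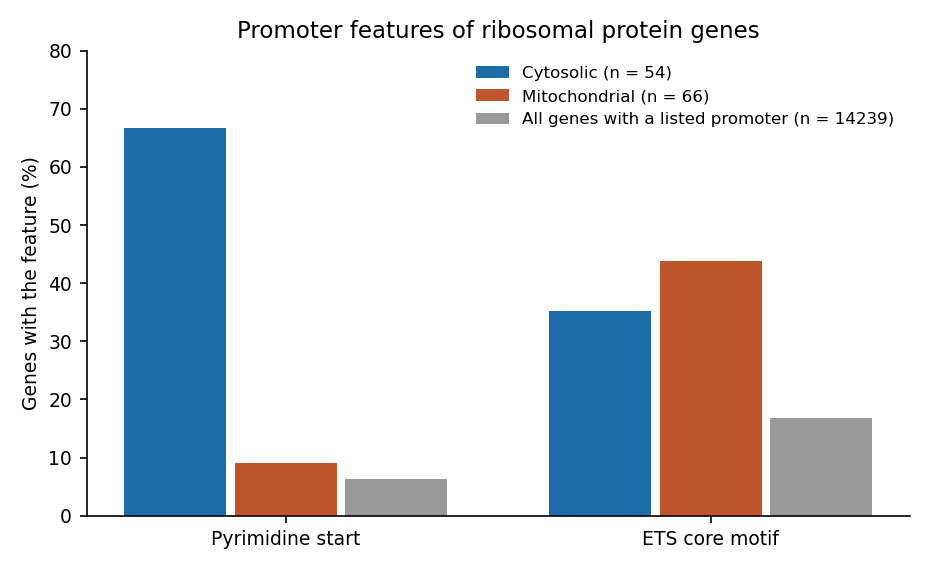
Share of genes (%) whose RefSeq promoter window holds a pyrimidine start or the ETS core motif CCGGAAG, for 54 cytosolic members, 66 mitochondrial members and 14239 genes of the table. The pyrimidine start was found in 66.7%, 9.09% and 6.26%, and the ETS core motif in 35.2%, 43.9% and 16.8%.

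The promoters of MRPL40 and MRPL48, genes that fell, are shown with that of MRPL52, which has the same motif and the opposite sign of difference. Each line runs from 100 bases before to 10 after the start, on the plus strand as the gene reads; capitals mark CCGGAAG or, on the other strand, CTTCCGG. The windows are chr22:19432445-19432554 for MRPL40, chr11:73787774-73787883 for MRPL48 and chr14:22829787-22829896 for MRPL52.
MRPL40: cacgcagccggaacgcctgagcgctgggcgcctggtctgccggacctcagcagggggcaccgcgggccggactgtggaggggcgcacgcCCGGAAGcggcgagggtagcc
MRPL48: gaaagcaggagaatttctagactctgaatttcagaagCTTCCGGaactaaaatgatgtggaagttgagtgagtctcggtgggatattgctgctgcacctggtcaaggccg
MRPL52: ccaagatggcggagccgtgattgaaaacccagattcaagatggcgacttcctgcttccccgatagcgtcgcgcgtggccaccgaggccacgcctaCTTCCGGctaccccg

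The motif begins at -11 from the start in MRPL40, at -63 in MRPL48 and at -5 in MRPL52. Over the mitochondrial members 31 of 43 matches lay within 100 bases before a start, with a median position of -22. The cytosolic median was -54. Matches were counted for each annotated start, so a site near several starts of a gene counted more than once. No window was listed for MRPL35 and MRPL10, so the counts of falls by motif cover MRPL40 and MRPL48 alone. Members with and without the motif had similar medians. Mitochondrial members with it had a median difference of 0.01 (2 of 29 passed, MRPL40 and MRPL48), and those without it 0.02 (0 of 37 passed in limma). Cytosolic members had -0.02 with it and -0.00 without it. Among all genes of the table with a window, 5.38% with the motif and 5.27% without it passed.

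Starts of chosen cytosolic genes are shown from 10 bases before to 20 after the annotated start. The pyrimidine run of these genes can be seen beside RPS27L, which lacks it. The start of RPS29, with a run of 1, is not shown. Capitals mark the unbroken run of pyrimidines that begins at the start. The windows are chr1:153990752-153990781 (plus strand) for RPS27, chr15:63157458-63157487 (minus) for RPS27L, chr1:6199576-6199605 (minus) for RPL22, chr3:170870176-170870205 (minus) for RPL22L1, chr19:5690285-5690314 (plus) for RPL36 and chr17:8383174-8383203 (minus) for RPL26.
RPS27: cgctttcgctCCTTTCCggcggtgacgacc
RPS27L: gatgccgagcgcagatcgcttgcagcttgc
RPL22: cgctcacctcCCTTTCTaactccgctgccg
RPL22L1: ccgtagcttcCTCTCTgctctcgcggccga
RPL36: cggcgccagcCCTTCCgccacggccgtctc
RPL26: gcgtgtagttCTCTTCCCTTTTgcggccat

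RPS27 and RPS27L differ at the start, with a run of 7 pyrimidines against 0, while RPL22 and RPL22L1 both begin with a run, of 7 and 6. The differences of these 4 genes, given above, did not pass the threshold.

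Genes that build, regulate or work with ribosomes were taken from 11 lists of 163 genes, of which 154 were measured. In limma 5 rose and 3 fell (5.19%, against 4.91% of all genes), and the groups did not overlap in 45 (29.2%, against 23.1%). Ribosomal proteins with other symbols gave 0 calls among 3 cytosolic and 4 mitochondrial genes in limma, and 1, the mitochondrial CHCHD1, had an unadjusted p under 0.05 (difference 0.17, limma adjusted p = 0.133). The stalk protein RPLP1 differed by 0.07.

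Among genes of ribosome assembly and RNA polymerase I, WDR43, which acts in the first steps of small-subunit assembly, read 11.51, 11.50 and 11.52 in control cells and 11.27, 11.22 and 11.26 after ETS2 siRNA, a fall of 0.26 (limma adjusted p = 0.00864). RRS1, a large-subunit assembly factor, read 10.45, 10.48 and 10.46 and then 10.66, 10.73 and 10.72 and rose by 0.24 (limma adjusted p = 0.0137). POLR1F, a subunit of RNA polymerase I, read 8.39, 8.52 and 8.50 and then 8.74, 8.82 and 8.88 and rose by 0.34 (limma adjusted p = 0.0120). The remaining 36 assembly and 14 polymerase I genes measured did not pass, and the medians of the lists were 0.02 and 0.01. In the polymerase I list 7 of 15 genes had an unadjusted p under 0.05 in limma (46.7%, against 18.5% of all genes), 4 higher and 3 lower, and the groups did not overlap in 8 (53.3%, against 23.1%). In the assembly list these were 5 (13.2%) and 8 (21.1%) of 38 genes.

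On the mitochondrial side NSUN4, a methyltransferase that takes part in joining the subunits, fell by 0.18 (limma adjusted p = 0.0476), 1 of 24 assembly genes. MTRFR, a release factor of stalled ribosomes, rose by 0.16 (limma adjusted p = 0.0494), 1 of 13 translation factors. Of the 13 translation factors 5 had an unadjusted p under 0.05 in limma (38.5%, against 18.5% of all genes), 2 higher and 3 lower. Their groups did not overlap in 7 (53.8%, against 23.1% of all genes). Among 14 regulators of nuclear genes for mitochondria only GABPA passed. It encodes the DNA-binding subunit of GABP, itself an ETS-family factor. The brighter of its 2 probes read 9.75, 9.88 and 9.79 in control cells and 9.51, 9.52 and 9.56 after ETS2 siRNA. That is a fall of 0.28 (SE 0.0454, limma adjusted p = 0.0145). The mean over both probes fell by 0.18, so the dimmer probe fell less. GABPB1, the partner of GABPA, differed by 0.08, NRF1 by -0.01 and TFAM by -0.01.

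Of 16 regulators of cytosolic ribosomal protein genes and TOP messages, EIF4EBP2, a repressor of cap-dependent translation, rose by 0.21 (limma adjusted p = 0.0224). MYC differed by -0.00, MTOR by -0.06 and LARP1, which binds TOP messages, by -0.02. Of 17 other genes with TOP messages, the histone chaperone NAP1L1 rose by 0.22 (limma adjusted p = 0.0478), while the elongation factors EEF1A1 and EEF2 differed by -0.06 and 0.00. Chaperones of new ribosomal proteins gave 0 calls among 4 genes and the p53 axis 0 among 6 in limma. In these 2 lists 1 gene, CDKN1A, had an unadjusted p under 0.05 (difference 0.19, limma adjusted p = 0.0843). For the p53 axis the groups did not overlap in 3 of 6 genes (50%, against 23.1% of all genes). Each of the 8 list genes that passed lost its call without at least 1 array; without the second or the third ETS2 siRNA array, 0 of the 8 kept it.

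Ribosomal protein genes that share a probe with another gene were tested apart, over all 33297 probes of the table, of which 399 (1.2%) passed. There were 51 such probes with 49 distinct readings, naming 24 genes of the symbol rule together with others; 26 of the probes named a pseudogene and 11 a small nucleolar RNA. In limma 0 passed and 4 had an unadjusted p under 0.05, against 13.7% of all probes. The probe of RPS3A, a small-subunit protein, and SNORD73A read 8.81, 8.92 and 8.87 in control cells and 8.63, 8.64 and 8.70 after ETS2 siRNA, a difference of -0.21 (limma adjusted p = 0.0984). The probe of MRPS28 and TPD52 differed by 0.29, that of RPL7A and SNORD24 by -0.11, and that of MRPS6 and SLC5A3 by -0.28. The single-symbol probes of RPS3A differed by -0.07 to -0.01 and that of RPL7A by -0.04, and MRPS28 and MRPS6 had none. Which gene of a shared probe a reading belongs to cannot be told apart from that probe.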

How the data were processed

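RNA of 6 H441 transfections was read on an Affymetrix human gene array. The deposited log2 values were made by the authors with RMA, per the submitters' processing notes, which corrects background, brings arrays to a common distribution and summarises the probes of a transcript; a shift shared by all genes is thereby removed. The sources used here name neither the authors' annotation nor a genome build, and the number of arrays limits the precision.

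Of 33297 probes, 19460 carried 1 gene symbol in the platform annotation, 1754 several and 12083 none. By gene identifier, 19429 of the first matched RefSeq and 0 symbols changed. The probe with the highest mean stood for a gene; 25 members had several probes, in 6 of them with both signs, and the probes of 1 gene differed by at most 0.16 (RPS15). Differences were fitted with limma 3.58.1 in R 4.3.3 (lmFit and eBayes without trend, two-sided, Benjamini-Hochberg adjustment over 18417 genes), and the procedure was tested on simulated data. Errors are SDs over arrays or moderated standard errors. An exact permutation test of 3 arrays against 3 cannot reach the 0.05 threshold, so single genes were tested in the model alone.

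Named are ETS2, every member and list gene past the threshold, the 5 members with the smallest p per class and direction, the 4 highest and lowest levels per class and the paralogue groups; other names were chosen after their values were seen. The members and lists were chosen with earlier results of these data known. Values of Y-linked members were counted and are not printed. The alternatives tried were a replicate block, centring or quantile-normalising the arrays again, a filter at the floor, the mean over probes, an intensity trend, robust variance, array weights, each array left out, and classes completed with ribosomal proteins of other symbols.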

Additional observations from a re-analysis of the deposited data

How the results depend on the processing

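The 4 lower mitochondrial calls became 2 with a replicate block and ranged from 0 to 2 without 1 array, 0 without the second or the third ETS2 siRNA array; the other settings gave 3 to 5. The 0 higher mitochondrial calls became 1 after quantile normalisation, 2 with genes above the floor alone, 7 with an intensity trend and 2 with array weights. For cytosolic members 1 gene, RPL39L, was called higher with the replicate block, quantile normalisation, the floor filter, the intensity trend and array weights, and 0 were called lower under every setting run. The 5 higher list genes became 2 with the block, 8 after quantile normalisation, 8 above the floor, 10 with the trend, 3 with robust variance, 9 with array weights and 0 to 3 without 1 array. The 3 lower ones became 5, 7, 9 and 7 under quantile normalisation, the floor, the trend and array weights, and 0 to 2 without 1 array. Over all genes 904 calls became 604 with the block, 1408 above the floor, 1963 with the trend, 1480 with weights and 213 to 735 without 1 array. Some settings had fewer arrays or genes, and the cause of the changes in these counts was not tested.

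The cytosolic median difference ran from -0.0133 to 0.0133 without 1 array and the mitochondrial one from 0.005 to 0.0267. The change in the cytosolic minus mitochondrial median level was -0.0033, and -0.045 with the mean over probes. Signs turned for RPS27 (0.0100 centred, 0.0108 after quantile normalisation, -0.0150 to 0.0100 without 1 array), MRPS18A (-0.0350 to 0.0400), RPL10L (-0.0067 to 0.0700) and RPL36AL (-0.0233 to 0.0567). The labels do not say that the replicate numbers pair transfections. Same-numbered arrays had deviations correlated at 0.177, 0.181 and 0.0352 and unlike-numbered ones from -0.198 to 0.0659; controls 1 and 2 and ETS2 siRNA arrays 1 and 2 correlated best with their own number and the third arrays did not, and the samples were kept unpaired. With the block MRPL40 (limma adjusted p = 0.0564) and MRPL48 (0.0787) missed the threshold. Adding ribosomal proteins of other symbols to the classes left the counts of adjusted calls and both median differences as they were.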

Other observations

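RPL34-DT, a transcript that starts beside RPL34 and runs away from it, was taken by the symbol rule although it encodes no ribosomal protein. It read 5.12, 4.70 and 5.18 in control cells and 5.60, 5.20 and 5.12 after ETS2 siRNA, a difference of 0.31 (SE 0.153, limma adjusted p = 0.344) at a level under the floor. The brighter probe of RPL34 itself read 12.86, 12.87 and 12.96 and then 12.78, 12.94 and 12.89, a difference of -0.03. Its dimmer probe, with a mean of 8.24, differed by 0.03. The groups overlapped for RPL34-DT and for both probes of RPL34.

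The lowest levels among mitochondrial members were those of MRPS18C, MRPL54, MRPL13 and MRPS9, at means of 6.36, 7.34, 7.77 and 7.97, and the highest those of MRPL45, MRPS15, MRPL37 and MRPL49, at 12.40, 12.19, 12.10 and 11.70. Levels of different probes cannot be set against each other as amounts of RNA.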
